A study of Mus musculus with 6 samples.

Results

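Natural killer (NK) cells were read from single-cell RNA sequencing of 6 rhabdoid tumors of the mouse. A cell was taken as an NK cell when at least 2 of the 5 genes Ncr1, Klrb1c, Klre1, Gzma and Nkg7 were detected, when it held no unique molecular identifier (UMI, the tag that counts a captured transcript once) of Cd3d, Cd3e, Cd3g, Cd8a or Cd8b1, and when C1qa, C1qb and C1qc together stayed under 20 UMIs per 10000. The cells were thus chosen by UMI counts of these genes in the same data. This rule found 389 NK cells among 22163 cells kept that had 200 or more genes and no more than 25% mitochondrial UMIs. All 6 mice carried floxed Smarcb1 (Smarcb1 fl/fl), the gene of a core SWI/SNF subunit, and a tamoxifen-inducible Cre (creERT2), with tamoxifen given to the pregnant mother at 50 mg/kg, 6.5 days after mating, so that no tumor-free or Smarcb1-intact control stood beside them. The tumors MYC spinal 1, 2 and 3 came from Rosa26-cre mice aged 19, 26 and 17 weeks. Of the extracranial rhabdoid tumors (eRT), eRT 1 lay at a gland of a Rosa26-cre mouse of 17 weeks, eRT 2 at the jaw of a Sox2-cre mouse of 29 weeks and eRT 3 at the shoulder of a Sox2-cre mouse of 22 weeks. The Rosa26 locus drives Cre in all cell types and Sox2 in the cells that express it, so that the site of the tumor and the Cre line are partly confounded. Each tumor is 1 animal and 1 library, and values below are given in the order of the tumors from 1 to 3 in each group.

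NK cells are lymphocytes of the innate immune system that kill stressed, infected or transformed cells without a rearranged antigen receptor. They weigh signals of activating receptors, such as NKp46, NKG2D and NK1.1, against those of inhibitory receptors that read MHC class I on the target, which in the mouse include most of the Ly49 family and the CD94/NKG2A pair. Killing uses granules that hold perforin and granzymes, and NK cells also release interferon gamma and chemokines that call in dendritic cells and other leukocytes.

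The NK cells numbered 133, 30 and 76 in MYC spinal tumors and 50, 87 and 13 in eRT. Of 610 cells with at least 2 of the 5 genes, 211 were left out for a CD3 or CD8 UMI and a further 10 for C1q alone. The median depth of an NK cell was 1338, 691 and 2432 UMIs among MYC spinal tumors and 3195, 2688 and 1202 UMIs among eRT, and the summed NK cells of a tumor held 16207 to 289975 UMIs. A gene without a UMI in these sums could still lie at up to 14.3, 117 and 13.3 CPM (UMIs per 1000000 UMIs of the sum) in MYC spinal tumors and 15.7, 10.3 and 185 CPM in eRT, the level of 3 counts, which covers counting error only. MYC spinal 2 and eRT 3 were thus far shallower than the others. Shared cell barcodes could not be counted, since the tables number their cells, and 0 cells had the same counts in tables of different tumors.

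The rule used these 5 genes, so their levels are a description. Ncr1, the gene of NKp46, lay at 972, 117 and 199 CPM in MYC spinal tumors and 334, 552 and 370.2 CPM in eRT, and it reached no more than 35.2 CPM in any T cell sum. Klrb1c, the gene of NK1.1, lay at 786, 392 and 159.5 CPM in MYC spinal tumors and 632, 266 and 494 CPM in eRT. Nkg7, a granule gene that cytotoxic T cells also use, was found in 90.0% to 98.9% of the NK cells of a tumor. On the threshold itself, 90 cells held exactly 2 of the 5 genes and 952 cells just outside it held 1. Klrd1, the gene of CD94, which the rule did not use, was found in 61.1% of the former and 4.20% of the latter (13.7% without MYC spinal 2, which held 755 of them, and 0% to 55.6% by tumor among the other 5), and in 92.2% of the 64 cells with all 5 genes. In MYC spinal 2, 735 of the cells with 1 gene held Nkg7 alone and 71.4% held a UMI of Mpo, a gene of granulocyte progenitors. Among the 18 cells of that tumor with exactly 2 genes, Klrd1 was found in 22.2%, against 58.8% to 100% in the other tumors. S100a8, a neutrophil gene, was found in 72.2% of these 18 cells and Mpo in 16.7%, so the threshold was less clear in MYC spinal 2.

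The label was then read against the marker genes of the other cells that the gate could hold. Cd4, Cd5 and Cd6 had no UMI in any NK cell, and Bcl11b and Themis were found in 1 cell each, while Cd28 was found in 76 NK cells. Lef1, a further gene of this T cell list, was also found in NK cells. At least 1 of these 7 genes was found in 24.1%, 13.3% and 23.7% of NK cells in MYC spinal tumors and in 34.0%, 23.0% and 15.4% in eRT. In T cells of the same tumors the shares were 30.5% to 75.3%. The constant regions of the T cell receptors (Trac, Trbc1, Trbc2, Trdc, Tcrg-C1 and Tcrg-C2) were not among the genes with counts. A T cell without a CD3 or CD8 UMI, gamma delta T cells included, thus cannot be told apart by them. Of the gamma delta genes Cd163l1 alone had counts, and it was found in 1.15% of NK cells of eRT 2 and in none of the other tumors. Cd79a and Ms4a1 of B cells, Il1rl1, Il13, Il23r and Il22 of other innate lymphoid cells, and Flt3, Xcr1 and Cd209a of dendritic cells were also at 0 in all NK cells. Of the same lists, Cd79b of B cells was found in 1 NK cell, Areg of innate lymphoid cells in 3 and Siglech of dendritic cells in 2, while H2-Ab1, an MHC class II gene of dendritic cells and other antigen-presenting cells, was found in 92. The 5 dendritic genes summed to 33.3, 274 and 1294 CPM in NK cells of the MYC spinal tumors and to 141, 134 and 309 CPM in those of the eRT, against 100.4 to 2164 CPM in T cells. The 4 hemoglobin genes that mark erythroid cells summed to 33.3, 0 and 0 CPM and to 52.2, 4269 and 0 CPM, with a UMI in 20.0% of NK cells of eRT 1 and 18.4% of those of eRT 2. RNA of neutrophils was not at 0 either. Their 6 marker genes (S100a8, S100a9, Retnlg, Csf3r, Mmp9 and Cxcr2) summed to 0, 18989 and 3248 CPM in NK cells of the MYC spinal tumors and to 162, 817 and 0 CPM in those of the eRT, with a UMI in 96.7% of the NK cells of MYC spinal 2 and in none of those of MYC spinal 1 and eRT 3. In T cells of the same tumors the sums were 3.36, 4764 and 3427 CPM and 2955, 1133 and 33.7 CPM. The 7 monocyte and macrophage markers summed to 300.1 to 1923 CPM in NK cells and to 1053 to 2713 CPM in T cells. The 6 tumor and stroma markers (collagen genes, Sparc, Ogn and Angptl7) summed to 71.4, 0 and 585 CPM in NK cells of the MYC spinal tumors. In those of the eRT they summed to 5.22, 0 and 0 CPM. They had a UMI in 26.3% of the NK cells of MYC spinal 3, where they summed to 850 CPM in T cells. MYC spinal 2 stood apart in the label as well, since Ncr1 was found in 10.0% of its NK cells against 30.8% to 68.0% in the other tumors, Klrk1 in 6.67% and Gzmb in 3.33%, and 10 of its 30 cells were held in the gate by Gzma and Nkg7 alone, as were 37 of 389 cells over all tumors.

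The share of NK cells among all cells kept ranged from 0.323% to 9.05% between tumors. It was 9.05% (exact 95% binomial interval 7.64% to 10.6%) in MYC spinal 1, 0.522% (0.352% to 0.744%) in MYC spinal 2 and 1.13% (0.889% to 1.41%) in MYC spinal 3. It was 2.33% (1.74% to 3.06%) in eRT 1, 4.26% (3.43% to 5.23%) in eRT 2 and 0.323% (0.172% to 0.552%) in eRT 3. The groups overlapped, with both the highest share and the second lowest in MYC spinal tumors. The mean was 2.31% ± 1.97 (SD, n = 3) in eRT and 3.57% ± 4.76 (SD, n = 3) in MYC spinal tumors, a difference of -1.26 percentage points (exact two-sided permutation test over 20 splits, p = 0.80, where the smallest p that 3 against 3 allows is 0.10). Without MYC spinal 1 the difference turned to 1.48 percentage points (exact permutation test, p = 0.50). The intervals cover the counting of cells alone.

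Among NK and T cells together, the NK share followed another order. NK cells made up 12.9%, 41.7% and 36.9% of them in MYC spinal tumors and 56.8%, 18.8% and 9.03% in eRT. MYC spinal 1, first by its share of all cells, came last but one here, since it held 898 T cells beside its 133 NK cells. eRT 1 was the tumor in which NK cells outnumbered T cells, with 50 against 38. After each cell had been thinned to 1000 UMIs, the share of all cells was 8.36%, 0.386% and 0.638% in MYC spinal tumors and 2.01%, 4.10% and 0.226% in eRT, leaving out 19 of the 30 NK cells of MYC spinal 2, 17 of 133 in MYC spinal 1 and 10 of 87 in eRT 2 that lay below that depth. For this share the gate was applied again to the thinned counts. NK cells that lost marker UMIs could thus leave it, and T cells that lost their CD3 and CD8 UMIs could enter it. Such cells were not counted apart.

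**Figure D1:**
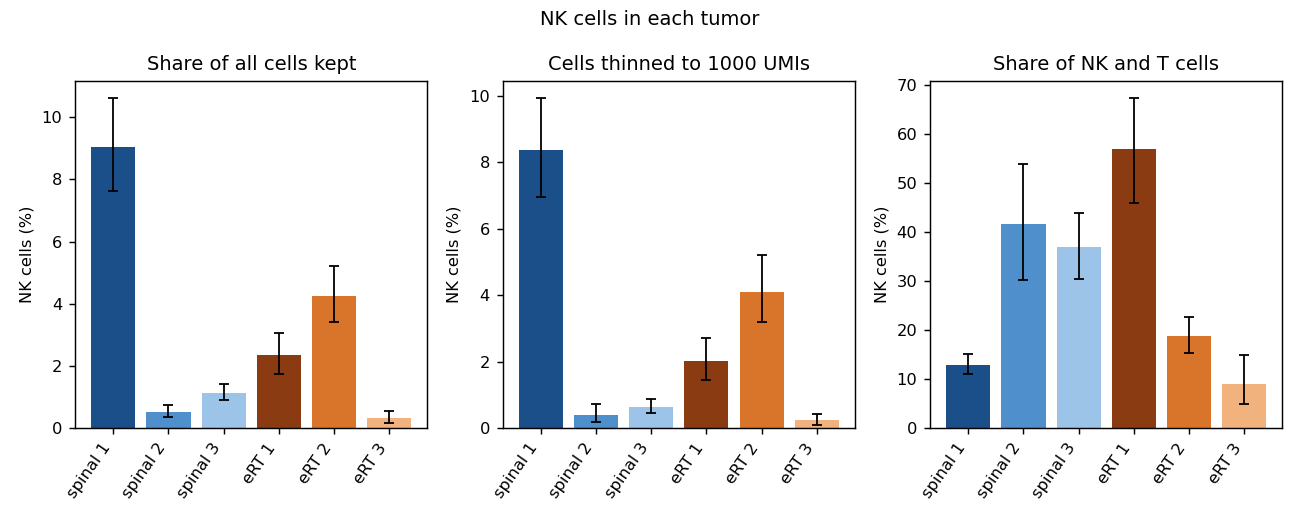
NK cells as a percentage of all cells kept (left), of all cells after thinning each to 1000 UMIs (middle) and of NK and T cells together (right), 1 bar per tumor (blue MYC spinal, orange eRT), with exact 95% binomial intervals for the counting of cells. MYC spinal 1 has the highest share of all cells, 9.05%, and eRT 1 the highest share of NK and T cells, 56.8%.

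For the genes that set NK cells apart, each tumor's NK cells were placed beside its CD8 T cells (at least 2 of the 3 CD3 genes and a CD8 UMI) and its CD8-negative T cells. Sums of at least 10 cells gave 11 such comparisons, 5 with CD8 T cells (MYC spinal 2 held 5 such cells) and 6 with CD8-negative T cells. The rule was built on this contrast, so no test was made. Of 7071 genes with a mean of at least 10 CPM, 68 (0.962%) were higher in NK cells in all 11 comparisons and 65 (0.919%) were lower. Of the 25 NK genes fixed beside the 5 of the rule, 11 were higher in all 11 comparisons, and none was lower in all. Levels of MYC spinal 2 below its limit of 117 CPM for a gene without a UMI were counted as they stood. Among them were Gzmb and Cd244 at 39.2 CPM and Klrk1 at 78.3 CPM, so these counts are uncertain for that tumor.

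This group held 3 receptors of the NK gene complex, Klrd1, Klrk1 and Klri2. Klrd1 (CD94, the partner of the NKG2 chains) lay at 1767, 392 and 727 CPM in MYC spinal tumors and 1823, 1038 and 1728 CPM in eRT, against 57.2 to 1027 CPM in the T cell sums. Klrk1 (NKG2D, the receptor for stress ligands) lay at 1548, 78.3 and 288 CPM in MYC spinal tumors and 653, 438 and 1234 CPM in eRT, against 23.8 to 484 CPM. In MYC spinal 2 both were lower than in the other NK sums, and Klrk1 there rests on 2 UMIs. Klri2, a lectin-like receptor of the same complex, lay at 414, 117 and 79.8 CPM in MYC spinal tumors and 204, 214 and 432 CPM in eRT, and no T cell sum exceeded 23.7 CPM. Klrc1, the inhibitory NKG2A chain, was not set apart in this way, since it lay at 433, 0 and 31.0 CPM in MYC spinal tumors and 141, 241 and 61.7 CPM in eRT and at 4.57 to 237 CPM in T cells. Klrb1f, a receptor gene of the NKR-P1 family, was found in NK cells of 5 tumors at 115 to 281 CPM, had no UMI in MYC spinal 2, and stayed at or below 18.3 CPM in T cells.

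Signaling genes followed in both directions. Tyrobp (DAP12, the adaptor of activating receptors) lay at 2844, 1488 and 2468 CPM in MYC spinal tumors and 2863, 2017 and 3332 CPM in eRT, against 42.7 to 1407 CPM in T cells. Fcer1g, the adaptor of NKp46 and of the Fc receptor CD16, lay at 2525, 822 and 1130.0 CPM in MYC spinal tumors and 2173, 1155 and 2159.6 CPM in eRT, against 78.0 to 982 CPM. The lowest NK level of Tyrobp lay above the highest of any T cell sum, while the ranges of Fcer1g overlapped between tumors. Tyrobp in T cells was lowest in MYC spinal 1 and eRT 3, the tumors with the least neutrophil RNA in T cells, and the part of myeloid RNA in these T cell levels was not tested. Lat, the scaffold of the T cell receptor, was lower in NK cells in all 11 comparisons, at 81.0, 0 and 26.6 CPM in MYC spinal tumors and 31.3, 27.6 and 0 CPM in eRT against 215 to 840.0 CPM. Hcst (DAP10), Cd247 (the zeta chain) and Zap70 overlapped with T cells. Il2rb, the beta chain of the receptors for interleukin 2 and interleukin 15, on which NK cells depend, lay at 657, 313 and 119.6 CPM in MYC spinal tumors and 402, 283 and 247 CPM in eRT and above T cells of its own tumor throughout.

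**Figure D2:**
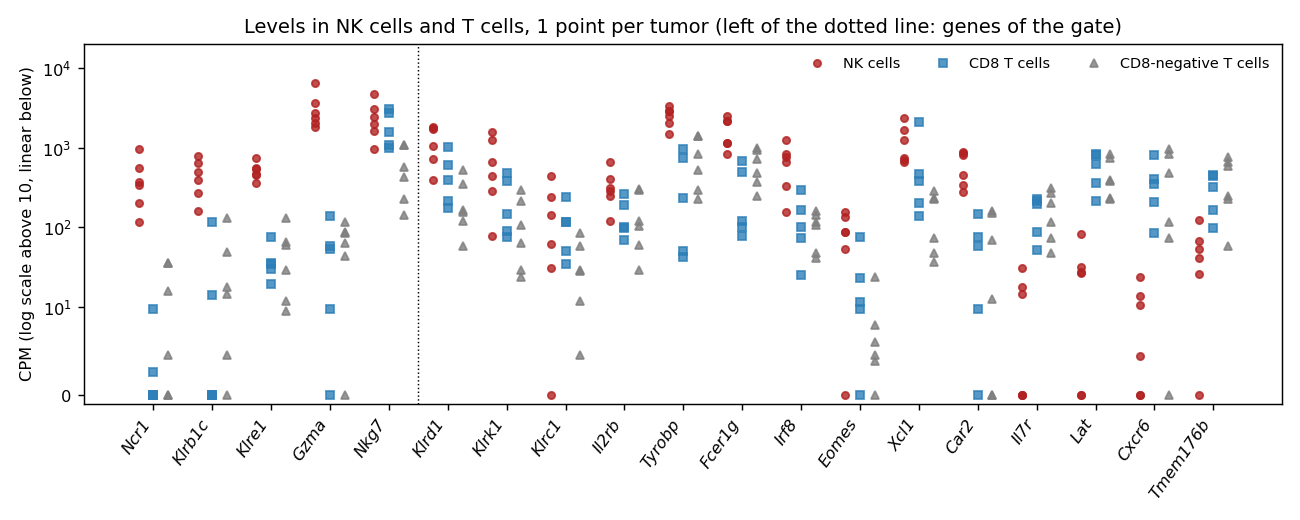
CPM of UMIs summed over NK cells (red circles, 6 tumors), CD8 T cells (blue squares, 5 tumors) and CD8-negative T cells (grey triangles, 6 tumors), 1 point per tumor, on an axis that is logarithmic above 10 CPM and linear below. Genes left of the dotted line chose the cells; Klrd1, Tyrobp and Car2 were higher in the NK cells of every tumor than in its T cells, and Il7r and Lat lower.

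The Ly49 receptors varied between the NK cells of a tumor and between tumors. Of 15 genes in the list, 11 are in the tables and all 11 had a UMI in NK cells, and Klra3, Klra4, Klra7 and Klra9 were higher than both kinds of T cells in all comparisons. At least 1 Ly49 gene was found in 81.2%, 23.3% and 51.3% of NK cells in MYC spinal tumors and in 92.0%, 69.0% and 61.5% in eRT. In T cells of the same tumors the shares were 13.0%, 2.38% and 8.46% and 28.9%, 4.79% and 6.11%. With each cell thinned to 1000 UMIs, which left out 46 of 389 NK cells, the shares in NK cells were 71.6%, 18.2% and 32.9% and 78.0%, 49.4% and 53.8%, against 4.17% to 21.1% in T cells. In C1q-high cells, which serve as a background for free RNA though they express some Ly49 genes, the thinned shares were 3.65%, 25% (2 of 8 cells) and 1.43% in MYC spinal tumors and 2.78%, 5.41% and 10.7% in eRT. Median depths before thinning were 847 to 2247.5 UMIs for T cells and 1017 to 4307 UMIs for C1q-high cells. eRT 1 and MYC spinal 1 had the highest shares of NK cells at either depth. In MYC spinal 2 the share was 23.3% of NK cells against 14.3% of C1q-high cells at their own depth, and 2 of 11 against 2 of 8 cells after thinning.

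Single Ly49 genes were each found in a minority of cells in nearly all tumors, as is known of this family, whose members are switched on in overlapping subsets. Klra7 (Ly49G) was found in 39.1%, 6.67% and 30.3% of NK cells in MYC spinal tumors and 52.0%, 27.6% and 30.8% in eRT. Klra8 (Ly49H, an activating member known for its role against cytomegalovirus) was found in 19.5%, 3.33% and 7.89% of NK cells in MYC spinal tumors and 36.0%, 18.4% and 0% in eRT. Klra4 (Ly49D, also activating) was found in 22.6%, 6.67% and 14.5% of NK cells in MYC spinal tumors and 26.0%, 33.3% and 15.4% in eRT. These genes are close copies of one another, and of the 60-base windows in the last 400 transcript bases, where 3′ reads fall, 41.9% of Klra10, 24.8% of Klra3, 23.6% of Klra9 and 8.21% of Klra8 recurred in another Ly49 gene, so that their single counts are uncertain. Klra7 and Klra4 shared none.

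**Figure D3:**
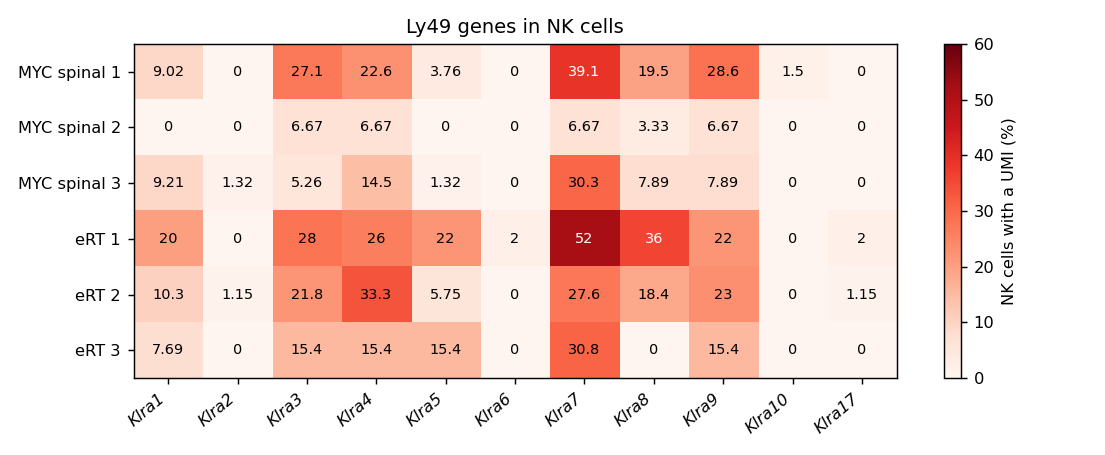
Percentage of NK cells with at least 1 UMI of each Ly49 gene, by tumor, from the cells at their own depth (13 to 133 cells per tumor). Klra7 was found in 52.0% of NK cells of eRT 1 and in 6.67% of those of MYC spinal 2, and Klra2, Klra6, Klra10 and Klra17 in at most 2.00% of any tumor.

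NK cells share much of their program with type 1 innate lymphoid cells, and the genes by which these kinds are usually told apart were read next. Eomes, a T-box factor of NK cells, lay at 85.7, 157 and 53.2 CPM in MYC spinal tumors and 136, 86.2 and 0 CPM in eRT, against 0 to 75.4 CPM in T cells. Only in eRT 3 were T cells higher, where 13 NK cells gave no Eomes UMI. Tbx21 (T-bet) lay at 76.2, 0 and 4.43 CPM in MYC spinal tumors and 57.5, 31.0 and 0 CPM in eRT, too low to order the tumors. Irf8 lay at 762, 157 and 332 CPM in MYC spinal tumors and 826, 666 and 1234 CPM in eRT, higher than T cells of the same tumor in all 11 comparisons. Rora and Ikzf2 were lower in all 11, with Rora at 0, 0 and 4.43 CPM in MYC spinal tumors and 0, 41.4 and 0 CPM in eRT against 23.4 to 363 CPM. Of 14 genes of type 1 innate lymphoid cells and tissue residency, 0 were higher in all comparisons and Il7r, Tmem176a, Tmem176b and Cd69 were lower. Itga1 (CD49a) was found in 12 NK cells, Cxcr6 in 10 NK cells and Il7r in 14 NK cells. As a set the 14 genes were not sparse. They summed to 1862, 509 and 1112 CPM in NK cells of MYC spinal tumors and to 752, 1911 and 2283 CPM in those of eRT. Cd69 lay at 78.4 to 186 CPM in NK cells and at 117 to 494 CPM in T cells. These comparisons are with T cells, so whether type 1 innate lymphoid cells lay among the NK cells was not tested.

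By the surface pair that stages NK maturation, Cd27 alone was found in 56 cells, Itgam (CD11b) alone in 11, both in 1 and neither in 321. Of the 56 Cd27 cells 32 lay in MYC spinal 1, and of the 11 Itgam cells 8 lay in MYC spinal 3. Neutrophils also express Itgam, and a neutrophil marker UMI was found in 53.9% of the NK cells of that tumor, and in 96.7% of those of MYC spinal 2 and 66.7% of those of eRT 2, which held 0 such Itgam cells. No tumor held 10 cells of both kinds. Klrg1, a receptor of late NK cells, was found in 48 NK cells and lay at 19.1, 0 and 31.0 CPM in MYC spinal tumors and 261, 128 and 0 CPM in eRT, with the highest levels in eRT 1 and 2. S1pr5, which lets mature NK cells leave tissue, was found in 4 NK cells. Ctla2a, from the immature list, lay at 1043, 352 and 736 CPM in MYC spinal tumors and 1223, 1221 and 2345 CPM in eRT and was higher than both kinds of T cells throughout. Of the 9 genes of that list it alone was higher throughout, and 1 other, Il7r, was lower throughout. None of the 11 genes of the mature list was higher or lower throughout. These values do not place the NK cells at a stage.

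The granzymes varied widely between tumors. Gzmb to Gzmg lie in tandem on mouse chromosome 14 (GRCm38), all on the minus strand, between Gzme (start 56117626) and Gzmb (end 56262260), apart from Gzma on chromosome 13. The 200 bases before the RefSeq start (GRCm38.p6) of Gzmb and of 3 of its neighbours are shown. Gzmc, Gzmd and Gzmf were all high in NK cells of MYC spinal 3, eRT 1 and eRT 2, while Gzmb was found in every tumor. Gzmc alone of these 3 neighbours was also found in MYC spinal 1 and eRT 3, so it followed the other 2 only in part. Capitals mark TGTGGT, the core letters read by RUNX factors, on either strand (ACCACA on the other), and TGACGTCA, the letters read by CREB and ATF factors. The marked stretches do not overlap.
Gzmb, chr14:56262335-56262534, minus strand: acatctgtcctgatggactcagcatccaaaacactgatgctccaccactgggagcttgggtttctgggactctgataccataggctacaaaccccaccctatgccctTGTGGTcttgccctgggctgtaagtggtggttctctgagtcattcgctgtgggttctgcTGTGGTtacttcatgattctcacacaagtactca
Gzmc, chr14:56234658-56234857, minus strand: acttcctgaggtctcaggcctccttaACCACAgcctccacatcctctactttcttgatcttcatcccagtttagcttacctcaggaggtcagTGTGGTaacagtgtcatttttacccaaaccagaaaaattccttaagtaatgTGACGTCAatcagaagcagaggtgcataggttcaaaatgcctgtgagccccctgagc
Gzmd, chr14:56132594-56132793, minus strand: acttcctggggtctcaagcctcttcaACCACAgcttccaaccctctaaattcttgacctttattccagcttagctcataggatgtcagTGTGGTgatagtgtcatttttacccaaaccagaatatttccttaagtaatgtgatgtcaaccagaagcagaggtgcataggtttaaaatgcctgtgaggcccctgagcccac
Gzmf, chr14:56211408-56211607, minus strand: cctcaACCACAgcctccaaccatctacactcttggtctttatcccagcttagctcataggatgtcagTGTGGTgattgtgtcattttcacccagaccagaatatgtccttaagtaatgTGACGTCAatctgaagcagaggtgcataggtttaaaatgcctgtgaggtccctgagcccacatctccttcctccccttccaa

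Each of these 4 windows, and those of Gzme and Gzmg, held TGTGGT 2 times, and 11.2% of 32851 RefSeq promoters of the same length held it at least once. The share of promoters that held it 2 times was not counted. TGACGTCA was found 1 time each before Gzmc, Gzmf and Gzmg, and in 1.47% of all promoters. In an alignment of the windows Gzmd and Gzme were 94.0% identical, Gzmc and Gzmd 85.3%, and Gzmb was 47.9% to 52.2% identical to the others. A match of letters is a description of the window and not of binding.

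Gzmc, a granzyme of mice best known from stimulated killer cells, lay at 295, 0 and 5299.7 CPM in MYC spinal tumors and 1625, 5869 and 3517 CPM in eRT. Gzmd lay at 0, 0 and 762 CPM in MYC spinal tumors and 836, 793 and 0 CPM in eRT. Gzmf lay at 0, 0 and 394 CPM in MYC spinal tumors and 1082, 800.1 and 0 CPM in eRT. All 3 were abundant in MYC spinal 3, eRT 1 and eRT 2, without a UMI in the 30 NK cells of MYC spinal 2, and in MYC spinal 1 and eRT 3 Gzmc alone of the 3 was found. Gzmc to Gzmg were grouped after their values were seen, so their shares and sums are a description. At least 1 of Gzmc to Gzmg was found in 15 of 133, 0 of 30 and 37 of 76 NK cells of the MYC spinal tumors and in 35 of 50, 33 of 87 and 9 of 13 of the eRT, 33.2% in all. The 0 of 30 in MYC spinal 2 allows a share of up to 10.0% of cells with such a UMI at their depth, which is no limit on the cells that express these genes.

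The shares were also taken at equal depth. With cells thinned to 1000 UMIs the shares were 10.3%, 0% and 47.4% in MYC spinal tumors and 46.0%, 37.7% and 69.2% in eRT, against 0% to 5.26% of T cells and 0% to 2.03% of C1q-high cells. As summed levels, Gzmc to Gzmg reached 295, 0 and 6908 CPM and 4138, 7842 and 3517 CPM in NK cells, and 55.3, 0 and 248 CPM and 184, 182 and 217 CPM in T cells. In the 5 tumors with any such UMI, NK cells held 30.2% (MYC spinal 1) to 89.8% (eRT 2) of all Gzmc to Gzmg UMIs of the tumor, although they were 0.323% to 9.05% of its cells. Of 60-base windows near the transcript end, Gzmc and Gzmb shared none with another gene and Gzmd, Gzme, Gzmf and Gzmg shared 4.11% to 12.3%.

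Gzma and Gzmb were found in NK cells of all 6 tumors. Gzma, which the rule used, lay at 6454, 2702 and 2326 CPM in MYC spinal tumors and 3579, 2062 and 1789 CPM in eRT. Gzmb lay at 1458, 39.2 and 545 CPM in MYC spinal tumors and 4493, 1241 and 1172.3 CPM in eRT, and was highest in eRT 1, where T cells were also highest, at 1511 to 2201 CPM. Prf1 (perforin) lay at 143, 0 and 57.6 CPM in MYC spinal tumors and 104, 166 and 0 CPM in eRT, against at most 19.4 CPM in any T cell sum. Serpinb9 and Serpinb6b, inhibitors that are known to shield killer cells from their own granule enzymes, were higher than in T cells in all 11 comparisons, with Serpinb9 at 609.7, 235 and 124 CPM in MYC spinal tumors and 402, 266 and 494 CPM in eRT. Of 21 granule and killing genes, Gzmb, Serpinb9, Serpinb6b and Cst7 met that criterion, and none was lower throughout. In MYC spinal 2 Gzmb and Cst7 met it at 39.2 CPM, below the limit of 117 CPM for a gene without a UMI. Gzmb was found there in 1 NK cell.

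**Figure D4:**
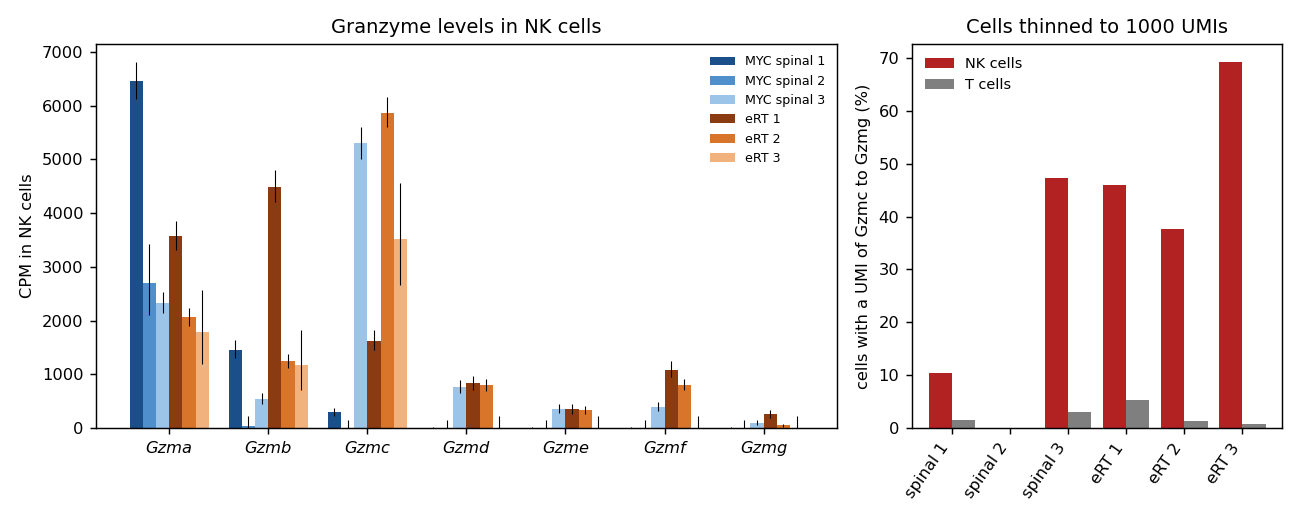
Left, CPM of granzyme genes in summed NK cells, 1 bar per tumor, with exact 95% Poisson intervals for counting error; right, percentage of NK cells (red) and of all T cells (grey) with a UMI of Gzmc to Gzmg after thinning each cell to 1000 UMIs. Gzmc is at 5300 CPM in MYC spinal 3 and 295 CPM in MYC spinal 1, and the thinned share in NK cells is 0% in MYC spinal 2 and 37.7% to 69.2% in MYC spinal 3 and the eRT.

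Of the secreted products, chemokines were found in the NK cells of every tumor. Xcl1, which attracts cross-presenting dendritic cells, lay at 1229, 705 and 731 CPM in MYC spinal tumors and 664, 1662 and 2345 CPM in eRT, and in T cells it reached 2083 CPM, in the 14 CD8 T cells of eRT 1. Ccl5 lay at 6802, 2623 and 589 CPM in MYC spinal tumors and 799, 735 and 987 CPM in eRT, highest in MYC spinal 1 and 2. Ccl4 lay at 967, 979 and 124 CPM in MYC spinal tumors and 831, 1010.4 and 802 CPM in eRT. Ifng, the gene of interferon gamma, was found in 43 NK cells at 81.0, 157 and 70.9 CPM in MYC spinal tumors and 36.6, 82.8 and 61.7 CPM in eRT, and Csf1 and Il10 had no UMI. Of the 14 checkpoint and costimulation genes, some were sparse and others were not. Pdcd1 (PD-1) was found in 3 NK cells, Tigit in 5 NK cells and Havcr2 (TIM-3) in 2 NK cells, while Tnfrsf9 (4-1BB) was found in 109 NK cells. At least 1 of the 14 was found in 73.7%, 6.67% and 61.8% of NK cells in MYC spinal tumors and in 96.0%, 82.8% and 84.6% in eRT. In T cells of the same tumors the shares were 40.5% to 94.4%. The 16 interferon response genes summed to 3715, 157 and 1666 CPM in NK cells of the MYC spinal tumors and to 1985, 635 and 617 CPM in those of the eRT, below T cells of the same tumor in all 6 tumors. Of the 15 with a mean of at least 10 CPM, Ifi27l2a alone was below both kinds of T cells in all 11 comparisons. Its mean was 348 CPM in NK cells against 1384 CPM in the T cell sums, so this gene weighs heavily in the sum.

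To ask whether NK cells differed between tumor sites, summed counts of the 3 eRT were compared with those of the 3 MYC spinal tumors. In edgeR (quasi-likelihood test, Benjamini-Hochberg adjustment at 0.05) 0 of 2610 genes tested differed (0%), while 70 genes (2.68%) had an unadjusted p under 0.05. DESeq2 also called 0 genes and gave 40 with an unadjusted p under 0.05. With 13 to 133 NK cells per tumor the sums are shallow, and site and Cre line cannot be told apart where they coincide.

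The members of the NK lists are given as values. Ccl5 was at log2 fold change -2.06 (SE 0.65, edgeR adjusted p = 1.0), with MYC spinal 3 at 589 CPM, below all 3 eRT. Klra5 (Ly49E) was at 52.4, 0 and 8.86 CPM in MYC spinal tumors and at 157, 62.1 and 309 CPM in eRT, at 2.17 (SE 0.76, adjusted p = 1.0), where the sum without a UMI in MYC spinal 2 could lie at up to 117 CPM, above eRT 2. Klf6, an early response factor, was at 719, 392 and 408 CPM and at 110, 303 and 123 CPM, without overlap, at -1.44 (SE 0.54, adjusted p = 1.0). Counted on the CPM as they stand, sums without a UMI included, such separation was met by 74 of the genes tested downward (2.84%) and by 101 upward (3.87%). Gzmc, at 0.81 (SE 1.64, adjusted p = 1.0), and Gzmb, at 1.65 (SE 0.89, adjusted p = 1.0), did not pass, and all 8 interferon response genes tested had a negative fold change, with 0 of 8 past the threshold, beside 1356 of all 2610 genes. The sum of the 16 interferon response genes in MYC spinal 2, 157 CPM, lay below all 3 eRT.

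Among the genes with the smallest p, Gm8444 (5.10, SE 1.08, adjusted p = 0.596), Gm5093 (3.04, SE 0.64, adjusted p = 0.596) and Rps26-ps1 (2.63, SE 0.63, adjusted p = 1.0) are gene models or pseudogenes, and Rpl23a (-2.19, SE 0.62) and Rpl9 (-1.74, SE 0.54) are ribosomal protein genes. These share sequence with close copies, and their counts are uncertain. Zbtb20, the gene of a zinc finger repressor, was at 143, 117 and 93.1 CPM in MYC spinal tumors and at 20.9, 27.6 and 61.7 CPM in eRT (log2 fold change -2.13, SE 0.55, edgeR adjusted p = 1.0). Cxcl10, an interferon-induced chemokine, was at -2.33 (SE 0.72, adjusted p = 1.0).

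Some NK cells carried several transcripts of dividing cells and are called cycling here. UMIs of at least 3 of 16 mitotic and S phase genes (such as Top2a, Mki67 and Rrm2) were found in 0 of 133, 3 of 30 and 24 of 76 NK cells of the MYC spinal tumors and in 13 of 50, 26 of 87 and 0 of 13 of the eRT. MYC spinal 3 (31.6%, exact 95% interval 21.4% to 43.3%), eRT 1 (26.0%, 14.6% to 40.3%) and eRT 2 (29.9%, 20.5% to 40.6%) had shares with overlapping intervals, and the interval of MYC spinal 1 reached from 0% to 2.74%. After thinning to 1000 UMIs the shares were 0%, 18.2% and 14.5% in MYC spinal tumors and 8.0%, 20.8% and 0% in eRT. In MYC spinal 1, T cells with these genes were found, 4.47% of CD8 T cells and 5.13% of CD8-negative T cells. The 3 tumors with the highest cycling shares before thinning were also those with the deepest NK cells and the highest Gzmd and Gzmf levels. After thinning this order did not hold, since MYC spinal 2, without a UMI of either gene, had 18.2% (2 of 11 cells). That share was above those of MYC spinal 3 and eRT 1, and the part of depth was not tested.

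Cycling NK cells were then compared with NK cells without any of the 16 genes, within the 3 tumors that held at least 10 cells of both kinds, with the tumor as a block and the 16 genes left out. By edgeR's quasi-likelihood test 52 of 1296 genes were higher (4.01%) and 55 lower (4.24%) in cycling cells at an adjusted p under 0.05, 107 in all (8.26%). Cycling cells were deeper, with medians of 2761 against 2264 UMIs in MYC spinal 3, 4516 against 2682.5 in eRT 1 and 5203.5 against 1625 in eRT 2, and the part of depth was not tested. DESeq2 called 21 higher and 4 lower, 23 of them among the 107. Without the block 11 genes were called, all 11 higher, and without the cells of eRT 2 the calls were 33 higher and 19 lower. Without TMM scaling the calls were 73 higher and 49 lower, 59.8% higher in place of 48.6%, with the median log2 fold change of all genes moved from -0.06 to 0.05.

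The genes that rose most belong to division, which checks the split. Stmn1, a regulator of microtubules, was at 1140.1, 1138 and 1622 CPM in cycling and at 101, 65.9 and 43.2 CPM in other NK cells of MYC spinal 3, eRT 1 and eRT 2 (log2 fold change 4.06, SE 0.28, edgeR adjusted p = 1.12e-13). Hmgb2, a chromatin protein, rose by 2.97 on the log2 scale, Cks1b by 2.75 and Cdc20, an activator of the anaphase-promoting complex, by 5.26. Of 16 cell cycle genes outside the split 9 were tested, 8 of them rose and Mcm6 did not pass.

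Among effector genes Gzmd rose. It was at 1206, 1749 and 1000.4 CPM in cycling and 676, 406 and 465 CPM in other NK cells (log2 fold change 1.22, SE 0.22, edgeR adjusted p = 2.60e-04). It was higher in 3 of 3 tumors, and the call was lost without the block, without the cells of highest Scrublet doublet score, and with each of 2 stricter gates, 1 on myeloid RNA and 1 on T cell genes. The latter removed the 76 cells with a Cd28 UMI, since Cd4, Cd5 and Cd6 were at 0 already. Gzmc was at 8138, 3157 and 6447 CPM in cycling and 4450.2, 747 and 4505 CPM in other NK cells (log2 fold change 0.97, SE 0.43, edgeR adjusted p = 0.424), higher in 3 of 3 tumors without passing the test. Gzme (log2 fold change 1.39, SE 1.08, edgeR adjusted p = 0.603), Gzmf (log2 fold change -0.05, SE 0.21, edgeR adjusted p = 0.926) and Gzmb (log2 fold change -0.29, SE 0.52, edgeR adjusted p = 0.829) did not pass either.

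Several receptor and adaptor genes fell in cycling NK cells. Tyrobp was at 1743, 1891 and 1602 CPM in cycling and 2805, 3359.5 and 2474 CPM in other NK cells (log2 fold change -0.82, SE 0.14, edgeR adjusted p = 5.34e-05). Klrd1 was at 668, 1223 and 896 CPM in cycling and 804, 2163 and 1188 CPM in other NK cells (log2 fold change -0.62, SE 0.18, edgeR adjusted p = 0.0272). Both were lower in 3 of 3 tumors. Of the 25 NK genes fixed beside those of the rule 18 were tested, and Tyrobp, Klrd1, Cd7 and Txk fell while none rose. Cd7, at -1.92, was lower in 2 of 3 tumors. The call of Tyrobp was lost under 3 of 14 alternatives, without the block and with each stricter gate. That of Klrd1 was lost under 10 of 14 (edgeR or DESeq2 adjusted p = 0.0556 to 0.827, with 0.431 without eRT 1 and 0.0989 without eRT 2), that of Txk under 11 of 14 (0.208 without eRT 1 and 0.253 without eRT 2) and that of Cd7 under 4 of 11 (0.267 without eRT 2). DESeq2 called Tyrobp alone of these 4. Of 4 Ly49 genes tested 0 passed.

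Of 7 immediate early and stress genes tested 4 fell and none rose, beside 55 of all 1296 that fell. Fos (log2 fold change -1.14, SE 0.26, edgeR adjusted p = 0.00405), Jun (log2 fold change -1.09, SE 0.32, edgeR adjusted p = 0.0283), Junb (log2 fold change -1.02, SE 0.22, edgeR adjusted p = 0.00264) and Btg2 (log2 fold change -1.13, SE 0.31, edgeR adjusted p = 0.016) fell. DESeq2 called none of these 4, and they were lost under 5, 7, 4 and 8 of 14 alternatives, among them Jun without eRT 2 (edgeR adjusted p = 0.429), Junb without eRT 2 (0.0963) and Btg2 without eRT 1 (0.0704) or MYC spinal 3 (0.126). Isg15, an interferon-induced ubiquitin-like protein, was at 65.5, 213 and 32.7 CPM in cycling and 183, 384 and 194 CPM in other NK cells (log2 fold change -1.56, SE 0.39, edgeR adjusted p = 0.00692), and was the 1 of 3 interferon response genes tested that passed, with Bst2 and Ifi27l2a short of the threshold. Its call was lost under 4 of 14 alternatives, among them DESeq2 (adjusted p = 0.244) and the fit without eRT 2 (edgeR adjusted p = 0.17). Ccnd2, a cyclin of the G1 phase, fell by 1.47 on the log2 scale, and Ccl3, a chemokine, by 2.17, the latter with at most 2 UMIs in either kind in MYC spinal 3, and DESeq2 called neither.

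Some of the genes that fell are known from myeloid cells. Acp5, an enzyme of osteoclasts, was at 786, 242 and 0 CPM in cycling and 3180.1, 845 and 21.6 CPM in other NK cells (log2 fold change -2.03, SE 0.25, edgeR adjusted p = 1.38e-07), and Cd68, a lysosomal protein of macrophages, at 170.4, 56.9 and 6.54 CPM in cycling and 439, 121 and 43.2 CPM in other NK cells (log2 fold change -1.47, SE 0.41, edgeR adjusted p = 0.0174). S100a9, a neutrophil gene, fell by 1.60 on the log2 scale (edgeR adjusted p = 0.0126), though it was higher in cycling cells of eRT 1, and with 2 of the 16 genes as the limit its fold change was 0.14. The call of Acp5 was lost without the block alone, that of Cd68 under 6 of 11 alternatives (edgeR adjusted p = 0.0985 without eRT 2) and that of S100a9 under 5 of 11, with DESeq2 among them for both. The 7 monocyte and macrophage markers summed to 1992, 469 and 209 CPM in cycling and to 2010, 648 and 583 CPM in other NK cells, and the 6 neutrophil markers to 354, 171 and 497 CPM and to 1069, 143 and 1512 CPM. The 4 erythroid genes summed to 0, 42.7 and 85.0 CPM in cycling and to 0, 65.9 and 13223 CPM in other NK cells. The 6 tumor and stroma markers summed to 354, 0 and 0 CPM in cycling and to 896, 11.0 and 0 CPM in other NK cells. The part of myeloid, erythroid and tumor RNA in these falls was not tested.

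**Figure D5:**
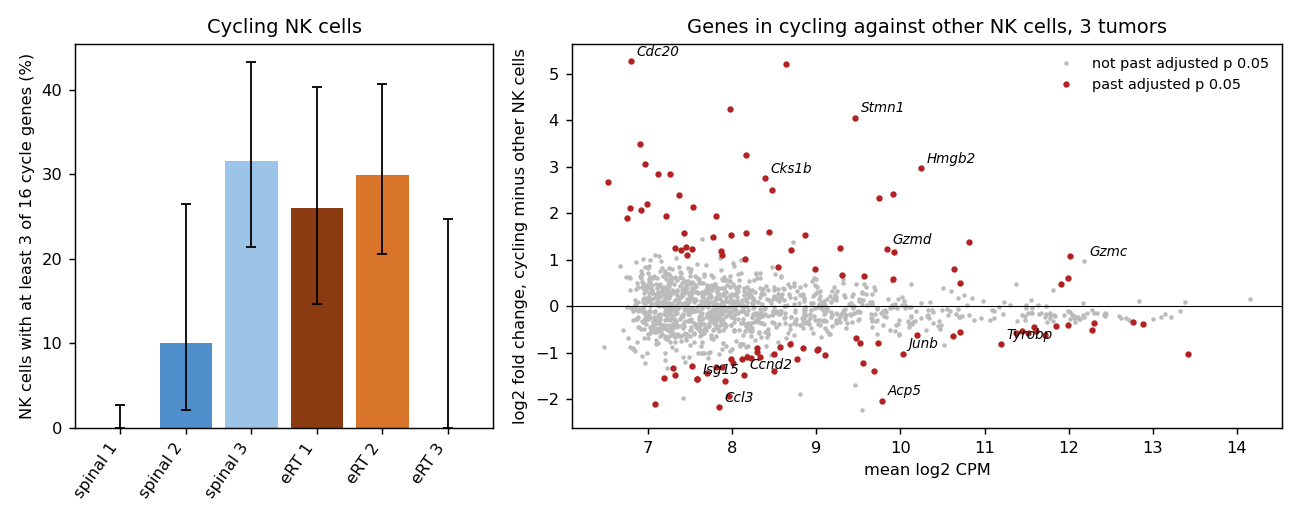
Left, percentage of NK cells with UMIs of at least 3 of 16 cycle genes, 1 bar per tumor (blue MYC spinal, orange eRT), with exact 95% binomial intervals; right, log2 fold change of cycling against other NK cells for 1296 genes of 3 tumors against their mean log2 CPM, with the 107 genes past an edgeR adjusted p of 0.05 in red. Stmn1, Hmgb2 and Cdc20 lie at the top with fold changes of 4.06, 2.97 and 5.26, Gzmd is past the threshold at 1.22, and Gzmc is not.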

How the data were processed

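Single-cell RNA sequencing libraries of 6 mouse tumors were used. The authors dissociated each tumor, sorted live cells, made 10x Genomics 3′ v2 libraries, processed the reads with Cell Ranger 2.0.2 on mm10, and deposited a table of UMI counts per gene and cell for each tumor, without normalization and with genes found in at least 3 cells. Samples were grouped by the tumor type in their labels. 0 columns of samples were left unused.

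The gate was applied to cells of 200 or more genes and no more than 25% mitochondrial UMIs. T cells had at least 2 of the 3 CD3 genes under the same limits, and C1q-high cells at least 20 C1q UMIs per 10000. Counts were summed per tumor and kind for kinds with at least 10 cells, scaled to CPM for description, and tested with edgeR 4.0.16 (TMM, filterByExpr, robust quasi-likelihood fit, Benjamini-Hochberg at 0.05). The SE is the size of the log2 fold change divided by the square root of F. The NK share was compared by an exact permutation test. Kept cells held 3841706 to 26184224 UMIs per tumor. Intervals are exact binomial or Poisson at 95%. Thinning drew UMIs without replacement. Scrublet marked 21 of 22163 cells (0.0948%), 1 of them an NK cell, which is too few to have worked, so none was removed. As an alternative the 843 cells with the highest scores (0.8% per 1000 cells), 11 of them NK cells, were left out.

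Members and gene lists were chosen with earlier results of these data known. Genes named are those of the lists and, per test and direction, the leading genes that moved the same way in every tumor at a mean log2 CPM of at least 5. The tandem granzymes of chromosome 14 were grouped after their values were seen. Spp1 and the genes outside the lists that are named in the closing section were also chosen after their values were seen. The fits were tested on simulated data. Alternatives were DESeq2 1.42.0, no TMM, every gene with a UMI, stricter cell filters and gates, other limits for cycling, equal depth and each tumor left out. Promoters are from RefSeq (GRCm38.p6) and gene positions from GENCODE (GRCm38). Other tools were R 4.3.3, Python 3.11.15, scanpy 1.11.5, scipy 1.17.1 and Biopython 1.88.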

Additional observations from a re-analysis of the deposited data

How the results depend on the processing

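The NK share of cells kept differed between eRT and MYC spinal tumors by -2.78 to 1.48 percentage points when each tumor was left out in turn, and the sign turned, to 1.48, without MYC spinal 1. Every other alternative of the share kept its sign. Between eRT and MYC spinal NK cells the test called 0 to 1 genes when each tumor was left out, 3 with at least 3 of the 5 marker genes (5 tumors), 26 (7 higher, 19 lower) with every gene that held a UMI, 5 with no C1q UMI and low Lyz2, S100a8 and S100a9 (4 tumors), and 1 without the 2 tumors with the fewest NK cells, an alternative chosen after seeing the data. Of 167 values for the 10 genes named there 2, both of Gm8444, came past the threshold. No paired analysis was possible because each tumor came from a different mouse, and the numbers 1 to 3 do not pair tumors of the 2 groups.

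For cycling against other NK cells, leaving out each tumor gave 52 to 132 calls, DESeq2 25 (21 higher, 4 lower), no C1q UMI and low Lyz2, S100a8 and S100a9 50 (32 higher, 18 lower, 2 tumors), no UMI of Cd4, Cd5, Cd6 and Cd28, of which Cd28 alone was found, 25 (19 higher, 6 lower, 2 tumors), and cells without the highest Scrublet scores 56 (35 higher, 21 lower). The samples were paired by tumor, since both kinds of cells come from the same animal, and the fit with no replicate block called 11 genes, with all 107 genes in the same direction. Of 485 values for 37 named genes 130 fell short of the threshold and 1 reversed, S100a9, to 0.14 with at least 2 of the 16 genes. Where an alternative dropped tumors, fewer samples were tested. For the others the cause was not tested. NK cells with Itgam and those with Cd27 could not be compared, and the alternatives of that comparison were not run, because 0 tumors held at least 10 cells of both kinds. MYC spinal 2 (30 NK cells) and eRT 3 (13) were the shallowest sums in the comparison of sites.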

Other observations

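Outside the gene lists, 45 genes were higher in NK cells than in both kinds of T cells of every tumor compared, and the following were picked after their values were seen, as a description without a test. Fcgr3, the gene of the low-affinity Fc receptor that lets NK cells kill antibody-coated targets, lay at 78.3 to 309 CPM in NK cells and at 0 to 77.7 CPM in T cells. Styk1, a kinase-like gene, lay at 31.0 to 61.7 CPM against 0 to 4.59 CPM, and Spry2, an inhibitor of growth factor signaling, at 88.6 to 587 CPM against 0 to 85.8 CPM. Hhex, a homeobox factor, lay at 37.9 to 78.4 CPM against 0 to 18.3 CPM. Among the genes lower in NK cells throughout, Icos, a costimulatory receptor of T cells, lay at 0 to 39.2 CPM against 57.2 to 459 CPM, and Ly6a (Sca-1) at 19.1 to 229.9 CPM against 85.8 to 1213 CPM.

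Spp1, the gene of the secreted protein osteopontin, was also picked after its values were seen. It lay at 52.4, 0 and 1032 CPM in NK cells of the MYC spinal tumors and at 2184, 1452 and 494 CPM in those of the eRT, and it was above the T cells in 10 of 11 comparisons. With cells thinned to 1000 UMIs a UMI of Spp1 was found in 3.45%, 0% and 28.9% of NK cells of the MYC spinal tumors and in 52.0%, 31.2% and 23.1% of those of the eRT. In T cells the thinned shares were 1.98%, 0% and 13.1%, and 10.5%, 2.43% and 1.55%. C1q-high cells held 10676, 741 and 812 CPM in MYC spinal tumors and 2481, 1373 and 734 CPM in the eRT, and the part of their RNA in the NK level was not tested. Between cycling and other NK cells Spp1 was at log2 fold change 0.04 (SE 0.85, edgeR adjusted p = 0.987).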
